A study of Mus musculus with 15 samples.

Results

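Parasutterella and Turicimonas are 2 genera of the family Sutterellaceae. They were followed in the stool of mice given as Gpr15l-/- in the series text, over a course of dextran sulfate sodium (DSS) colitis. Their members are all the sequence variants that the deposited count table assigns to either genus and that hold at least 1 count over the 15 libraries. The members were thus selected on measured counts, with no comparison between groups, and the 2 genera were picked with earlier results of these data known. This gave 9 of the 507 amplicon sequence variants (ASVs) with a count, 3 in Parasutterella and 6 in Turicimonas. A further 35 entries of the 2 genera were at 0 in all 15 libraries. ASVs are numbered by their total count, so that low numbers are abundant sequences. In this table the 2 genera make up the whole of Sutterellaceae, with 62097 of 1403011 counts (4.43%).

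By the series text all mice lacked Gpr15l, the gene of the chemotactic peptide that binds the receptor GPR15. The design text calls them littermates housed 3 to 4 per cage. The title of each library writes the genotype as Gpr15-/-, the gene of the receptor, whereas the series text writes Gpr15l-/-. Which is right is not settled by the sources used here. Recombinant human GPR15L or sterile phosphate-buffered saline (PBS) was given rectally once a day from day 3 to day 9, and DSS, an irritant of the colonic epithelium, was used to induce acute colitis. Stool DNA was amplified over the V4 part of the 16S rRNA gene and sequenced for 3 mice of the GPR15L arm before DSS (libraries 1 to 3), 3 of the PBS arm before DSS (4 to 6), 4 of the GPR15L arm after DSS (8 to 11) and 4 of the PBS arm after DSS (12 to 15). For the libraries before DSS, GPR15L and PBS name the arm of the mouse, as peptide or PBS was given only from day 3. The labels number the samples from 1 to 15 and tie none before DSS to one after it, so the changes over DSS are compared between groups without pairing, and how the mice were spread over cages is not given in the sources used here. The labels list every mouse as male, whereas the design text names both sexes. As the series has no group without the deletion and none without DSS at the later time, a change over DSS is a difference between 2 times.

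The library titled 7 is shown apart. Its title and treatment label place it after DSS with PBS, but by library name it is numbered directly after libraries 1 to 6, whereas the 8 other libraries after DSS are numbered further on as a block of their own. It was in no group, and the main comparisons with the PBS group after DSS are also given with it counted as titled. In the other 14 libraries the time and the block of library names coincide and cannot be told apart, while both arms occur within each block. Library totals lay between 48847 and 197433 counts. Library 6 and the library titled 7 held the fewest ASVs at the equal depth of 48847 counts, 90.6 and 89.3 against 127 to 295 in the others.

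Sutterellaceae are gut Proteobacteria of the order Burkholderiales that live in the lower intestine and use few or no sugars. Parasutterella is a common member of the human and mouse gut that forms succinate and has been tied to bile acid handling. Turicimonas is known from Turicimonas muris, a mouse gut isolate used in defined communities of germ-free mice. A bacterial genome usually carries several copies of the 16S rRNA gene that can differ in sequence, so several ASVs can come from a single strain.

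Turicimonas was among the leading genera before DSS and was lower in both arms afterwards. Its share of all counts was 5.79%, 9.98% and 9.51% in the GPR15L mice before DSS, a mean of 8.43% ± 2.30 (SD, n = 3). In the PBS mice before DSS it was 6.54%, 11.6% and 1.39%, a mean of 6.51% ± 5.11 (SD, n = 3). The mean without library 5, the highest, was 3.97%, and library 6 lay within the range of the mice after DSS. After DSS it was 1.29%, 0.997%, 6.49% and 1.85% with GPR15L, a mean of 2.66% ± 2.58 (SD, n = 4), or 1.38% without library 10. After DSS with PBS it was 0.793%, 1.14%, 0.223% and 0.401%, a mean of 0.640% ± 0.411 (SD, n = 4). The library titled 7 held 4.68%, and with it the PBS mean after DSS was 1.45% ± 1.84 (SD, n = 5). By rank among the genera of its library, Turicimonas held ranks 2 to 9 before DSS, 3 to 15 after DSS with GPR15L and 11 to 26 after DSS with PBS.

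**Figure D1:**
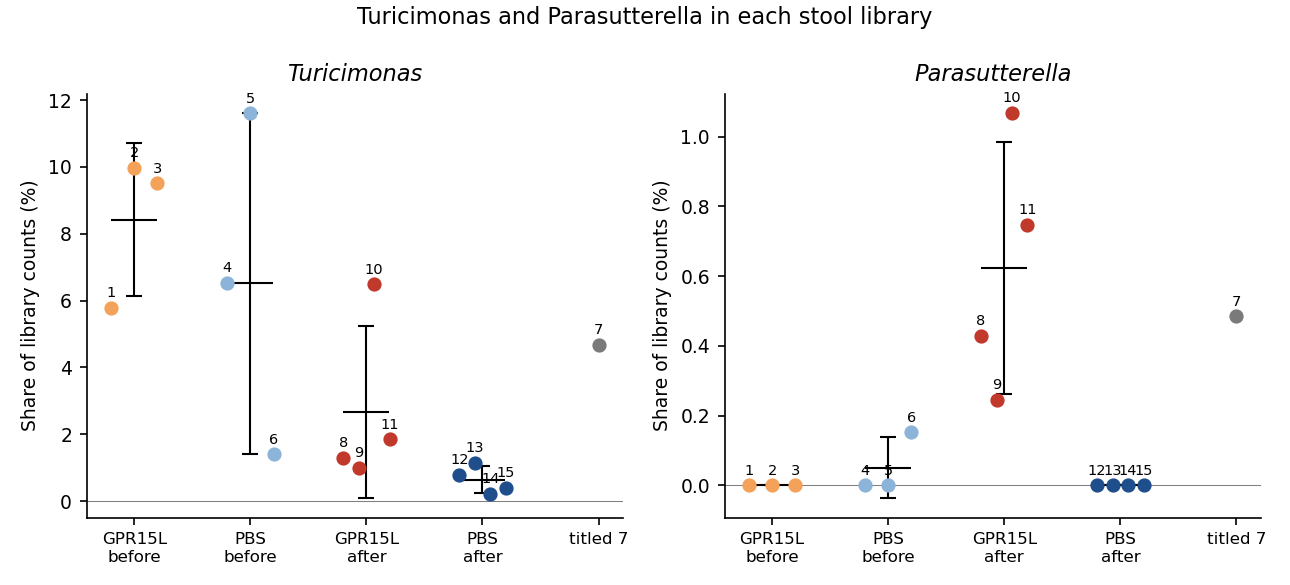
Share of library counts (%, linear axis) of Turicimonas (left) and Parasutterella (right) in each of 15 stool libraries, by arm and time; points are libraries with their number, horizontal bars the group mean and whiskers 1 SD. The right panel shows Parasutterella in all 4 libraries after DSS with GPR15L (0.246% to 1.07%), at 0 in all 4 with PBS, and in 1 of 6 libraries before DSS.

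Turicimonas did not pass the test in any comparison, although its PBS groups did not overlap. Each test below is edgeR's quasi-likelihood test on 14 libraries with Benjamini-Hochberg adjustment over all features of its level, and a result is called at an adjusted p under 0.05. Over DSS in the PBS arm the mean share was 10.2-fold lower, and the 2 groups did not overlap; the fitted log2 difference was -3.13 (SE 1.04, adjusted p = 0.0822). In this comparison 5.13% of the 78 genera tested passed in either direction. Over DSS in the GPR15L arm the mean was 3.17-fold lower with overlapping groups, and the fitted log2 difference was -1.82 (SE 1.01, adjusted p = 0.218). After DSS the GPR15L mean was 4.15-fold that of PBS with overlapping groups, and the fitted log2 difference was 2.31 (SE 0.98, adjusted p = 0.130). Before DSS the arms differed by 1.00 on the log2 scale (SE 1.08, adjusted p = 0.703), and the difference between the 2 changes over DSS was 1.31 (SE 1.43, adjusted p = 0.660). The PBS change passed with total counts as the only scaling (adjusted p = 0.0329), with DESeq2 (0.00921), and without library 4 (0.0270) or library 6 (0.0335). The arms after DSS passed with DESeq2 (0.0246) and with the 2 groups fitted alone (0.0305). With the library titled 7 counted as PBS after DSS, the PBS groups overlapped, the adjusted p of the PBS change was 0.159, and the ratio of the arms after DSS was 1.83 (adjusted p = 0.332).

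Parasutterella was found in all 4 mice after DSS with GPR15L and in none of the 4 with PBS. Its share was 0.429%, 0.246%, 1.07% and 0.747% in libraries 8 to 11, a mean of 0.623% ± 0.362 (SD, n = 4), from 1858 counts. It had 0 of 233599 counts over the 4 PBS mice after DSS, which allows a share of up to 0.00128%. The GPR15L mean was therefore at least 485-fold higher, with the floor of 3 counts taken over the group. Before DSS it was at 0 in all 3 GPR15L mice, 0 of 328865 counts, which allows 0.000912%. The rise over DSS in the GPR15L arm was at least 683-fold.

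Before DSS, 1 of the 3 PBS mice also carried Parasutterella. This was library 6, with 204 counts or 0.153%, while libraries 4 and 5 were at 0, so that the group mean was 0.0511% ± 0.0886 (SD, n = 3). The library titled 7, labelled PBS after DSS, held 0.485%, within the range of the 4 GPR15L mice after DSS. Library 6 and the library titled 7 were the 2 libraries with the fewest ASVs, and library 6 held the largest share of mitochondrial 16S rRNA sequence, 1.36% against 0 to 0.724% in the others; the part of these in the result was not tested.

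In the test over 78 genera, Parasutterella passed between the arms after DSS (adjusted p = 0.0201) and over DSS in the GPR15L arm (adjusted p = 0.0395). In these comparisons 3.85% and 2.56% of the genera were called higher. The GPR15L change also exceeded the PBS change (adjusted p = 0.0247), where 1.28% of the genera were called higher. A fitted fold change against a group at 0 rests on the prior count and is not given here. Before DSS the arms did not pass (adjusted p = 0.195), where 0% of the genera were called by edgeR, 13 had an unadjusted p under 0.05, and DESeq2 and limma voom called 4 each. The change over DSS in the PBS arm did not pass either (adjusted p = 0.0822), and it rests on library 6 alone. The arms after DSS failed without library 8 (0.0551) or library 14 (0.0645), the change in the GPR15L arm failed in 8 of 14 fits that each left out 1 library (highest adjusted p = 0.113), and the difference of the changes failed without library 1, 3, 8 or 14 and could not be fitted without library 6. With the library titled 7 counted in the PBS group after DSS, the PBS mean was 0.0969%, the GPR15L mean was 6.42-fold higher with overlapping groups (adjusted p = 0.340), and the adjusted p was 0.0899 for the change in the GPR15L arm and 0.191 for the difference of the changes. Parasutterella reached the filter on low counts only through the GPR15L mice after DSS, which favours a difference there; with no count filter its adjusted p was 0.00628 between the arms after DSS and 0.0185 over DSS in the GPR15L arm.

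In mean share, the gain of Parasutterella was small beside the difference in Turicimonas. In the GPR15L arm the mean of Turicimonas differed by -5.77 percentage points over DSS and that of Parasutterella by 0.623 points, which is 10.8% of the size of the former. The family as a whole differed by -5.15 points there. In the PBS arm the differences over DSS were -5.87 points for Turicimonas, -0.0511 points for Parasutterella and -5.93 points for the family. Without library 10 the GPR15L differences were -7.05 and 0.474 points, or 6.73%, and without library 5 the PBS difference in Turicimonas was -3.33 points.

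Among the 4 mice after DSS with GPR15L, the 2 genera stood in the same order. Both were lowest in library 9, then library 8, then library 11, and highest in library 10. As a share of the counts of both genera, Parasutterella was 25.0%, 19.8%, 14.1% and 28.8% in libraries 8 to 11, a mean of 21.9% ± 6.37 (SD, n = 4). It was 9.92% in library 6 and 9.38% in the library titled 7. Shares of 1 library sum to a fixed total, and the bacterial load was not measured, so a rise in one genus cannot be told apart from a fall in the rest, nor fewer cells from less DNA per cell. Parasutterella at 0 occurred both with the highest shares of Turicimonas (library 5, 11.6%) and with the lowest (library 14, 0.223%).

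**Figure D2:**
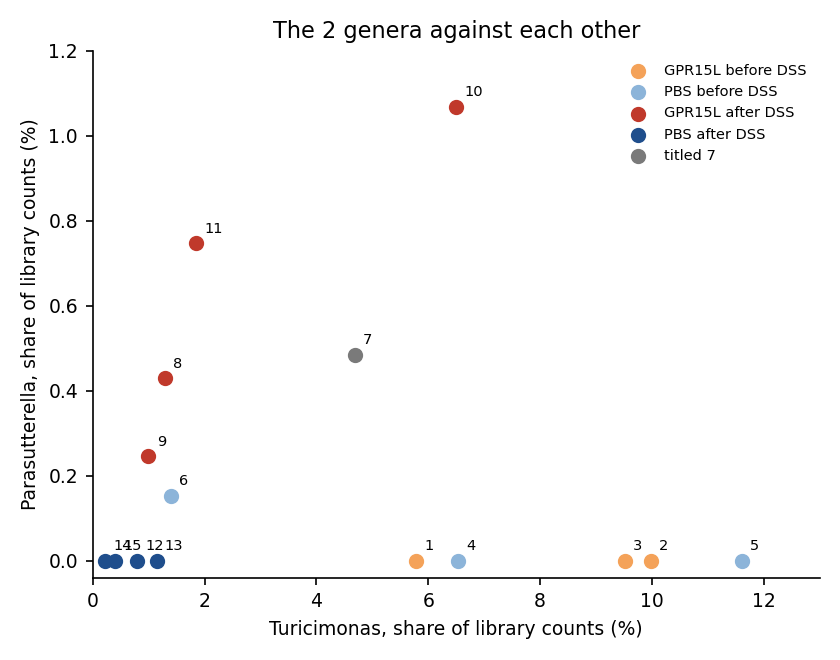
Share of library counts (%, linear axes) of Turicimonas (x) against Parasutterella (y) in each of 15 libraries, coloured by group and marked with the library number. The 4 libraries after DSS with GPR15L climb together on both axes, while 9 libraries lie at 0 for Parasutterella between 0.223% and 11.6% of Turicimonas.

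The sum of both genera, the family Sutterellaceae, differed between the arms after DSS. It was 1.72%, 1.24%, 7.56% and 2.59% with GPR15L, a mean of 3.28% ± 2.91 (SD, n = 4), and equal to Turicimonas, 0.640% ± 0.411 (SD, n = 4), with PBS. The groups did not overlap, the ratio of the means was 5.13, and without library 10 the GPR15L mean was 1.85%. The fitted log2 difference was 2.84 (SE 0.85, adjusted p = 0.0251), and 5.26% of the 38 families tested were called higher. The family also fell over DSS in the PBS arm (log2 difference -3.36, SE 0.89, adjusted p = 0.0386), where 2.63% of the families were called lower. It was not called over DSS in the GPR15L arm (log2 difference -1.68, SE 0.85, adjusted p = 0.152; 2.63% of the families were called in either direction), nor in the difference of the 2 changes (1.67, SE 1.21, adjusted p = 0.405; 5.26% called in either direction). Before DSS the log2 difference was 1.17 (SE 0.92, adjusted p = 0.416), where edgeR called 0% of the families, 7 had an unadjusted p under 0.05, DESeq2 called 6 and limma voom 0. The arms after DSS failed without library 10 (0.110), 11 (0.0625), 14 (0.0694) or 15 (0.0536), and the PBS change without library 5 (0.117), 11 (0.0613), 12 (0.0629), 14 (0.105) or 15 (0.0893). The call between the arms was also lost with limma voom (0.0555) and with the filter of a mean share of 0.1% (0.0624), and the PBS change with the 2 groups fitted alone (0.0716). With the library titled 7 counted as PBS after DSS, the ratio of the arms was 2.12 with overlapping groups (adjusted p = 0.196), and the adjusted p of the PBS change was 0.322.

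Turicimonas consisted of 3 ASVs at measurable levels. ASV7 held 74.7% of the counts of the genus over all libraries, ASV34 18.9% and ASV68 6.37%. The other 3 were at the edge of detection and were not tested: ASV428 had 5 counts in library 3, ASV473 had 3 in library 8 and ASV495 had 2 in the library titled 7. Parasutterella consisted of ASV96 with 72.1% of its counts, ASV151 with 25.1% and ASV298 with 2.78%. These 6 ASVs were the members that passed the filter on low counts, a count in at least 3 of 14 libraries; ASV96, ASV151 and ASV298 reached it only through the GPR15L mice after DSS.

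ASV34 was found in all 10 mice of the other groups and was at or near 0 in the 4 mice after DSS with PBS. Before DSS its share of all counts was 0.481%, 2.51% and 0.544% in the GPR15L mice, a mean of 1.18% ± 1.15 (SD, n = 3), or 0.512% without library 2. In the PBS mice before DSS it was 1.68%, 2.62% and 0.550%, a mean of 1.62% ± 1.04 (SD, n = 3). After DSS with GPR15L it was 0.217%, 0.120%, 0.859% and 0.298%, a mean of 0.373% ± 0.332 (SD, n = 4), or 0.211% without library 10. After DSS with PBS it had 0, 0, 8 and 0 counts, a mean of 0.00295% ± 0.00589 (SD, n = 4). All 8 counts came from library 14. The groups after DSS did not overlap, nor did the PBS groups before and after. The mean was 127-fold higher with GPR15L than with PBS after DSS, and with library 14 left out at least 206-fold. Over DSS in the PBS arm it was 550-fold lower, or at least 895-fold with library 14 left out.

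ASV34 passed the test between the arms after DSS, with a fitted log2 difference of 7.65 (SE 1.56, adjusted p = 0.0051). It fell over DSS in the PBS arm (log2 difference -9.29, SE 1.69, adjusted p = 0.0027), and both calls held in all 14 fits that each left out 1 library, with adjusted p-values of at most 0.0200 and 0.0174. Over DSS in the GPR15L arm the log2 difference was -1.17 (SE 1.24, adjusted p = 0.502), and before DSS the arms differed by -0.48 (SE 1.34, adjusted p = 1.00). The 2 changes over DSS differed from each other by 8.13 (SE 2.04, adjusted p = 0.0165); this call failed without library 1 (0.0541), 3 (0.0553) or 5 (0.0508). With the library titled 7, which held 2317 counts of ASV34 or 1.38%, counted as PBS after DSS, none of these passed: the mean with GPR15L after DSS was 1.34-fold that of PBS with overlapping groups, and the adjusted p was 0.840 between the arms after DSS, 0.480 for the PBS change and 1.00 for the difference of the changes.

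**Figure D3:**
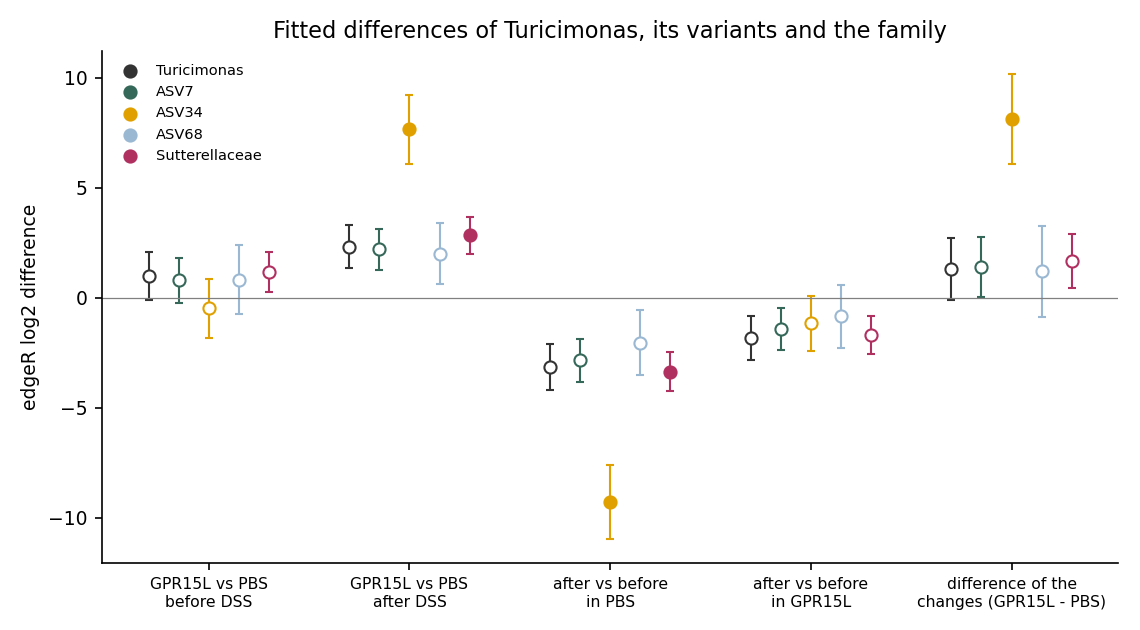
Fitted log2 differences (edgeR, 14 libraries) of Turicimonas, its 3 abundant ASVs and the family Sutterellaceae in 5 comparisons. Bars are 1 SE, back-calculated from the F statistic. Filled symbols passed an adjusted p of 0.05 and open symbols did not. ASV34 lies at 7.65 between the arms after DSS and at -9.29 over DSS in the PBS arm, while ASV7 and ASV68 were not called in any of the 5 comparisons.

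The same order of the arms after DSS was seen within the genus. As a share of Turicimonas counts, ASV34 was 16.8%, 12.0%, 13.2% and 16.1% after DSS with GPR15L, a mean of 14.5% ± 2.29 (SD, n = 4). After DSS with PBS it was 0 of 421, 0 of 572, 8 of 151 and 0 of 251 counts. The 95% exact (Clopper-Pearson) upper limits in libraries 12, 13 and 15 were 0.872%, 0.643% and 1.46%, and library 14 held 5.30% (2.31% to 10.2%); these intervals cover counting error only. The limits of libraries 12, 13 and 15 lie below the lowest GPR15L interval, 9.65% to 14.7% in library 9, while the interval of library 14 overlaps it. Before DSS the share was 8.31%, 25.1% and 5.72% in the GPR15L mice and 25.8%, 22.6% and 39.5% in the PBS mice, so the arms overlapped at that time, with means of 13.1% ± 10.5 (SD, n = 3) and 29.3% ± 8.99 (SD, n = 3). The library titled 7 held 29.6%, within the range of the 3 PBS mice before DSS.

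**Figure D4:**
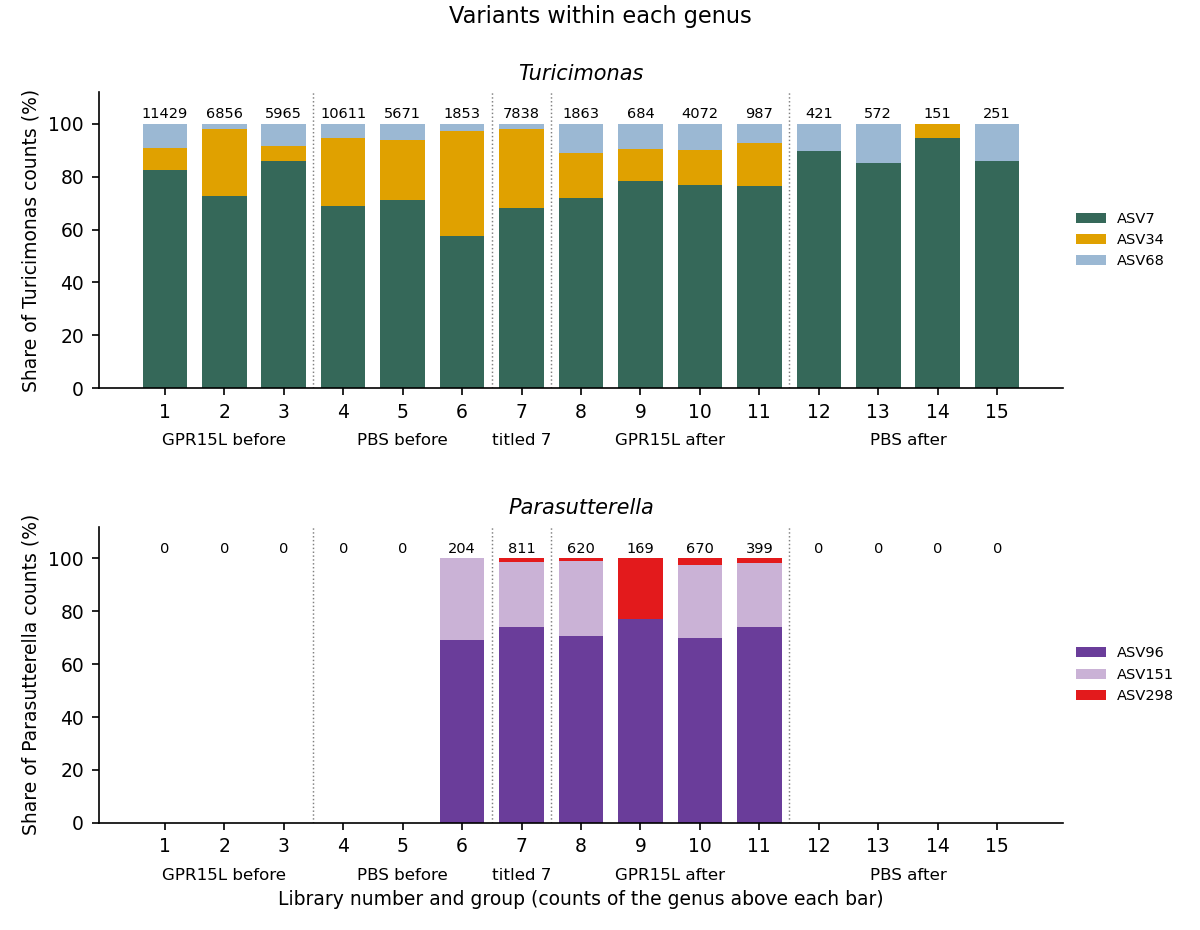
Makeup of each genus by library: stacked bars from 0 to 100% give the share of Turicimonas counts (top) and Parasutterella counts (bottom) taken by each named ASV, with the counts of the genus above each bar. ASV34 has no counts in 3 of the 4 libraries after DSS with PBS, and Parasutterella has the same leading ASV in all 6 libraries that hold it.

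ASV7, the main sequence of Turicimonas, followed the genus. Before DSS its mean share was 6.73% ± 1.76 (SD, n = 3) in the GPR15L arm and 4.52% ± 3.73 (SD, n = 3) in the PBS arm. After DSS it was 2.03% ± 1.99 (SD, n = 4) with GPR15L and 0.560% ± 0.347 (SD, n = 4) with PBS. Without library 5 the PBS mean before DSS was 2.65%, and without library 10 the GPR15L mean after DSS was 1.04%. It was detected in all 15 libraries, from 0.211% in library 14 to 8.25% in library 5, and both arms overlapped at each time. Its log2 difference was 2.21 between the arms after DSS (SE 0.93, adjusted p = 0.0783) and -2.85 over DSS in the PBS arm (SE 0.99, adjusted p = 0.0900). ASV7 was called between the arms after DSS without library 4 (adjusted p = 0.0249), with DESeq2 (0.0282) and with the 2 groups fitted alone (0.0402). It was called lower over DSS with PBS with TMM (0.0438), DESeq2 (0.0136) and limma voom (0.0400), and over DSS with GPR15L with limma voom (0.0287). Its adjusted p with the library titled 7 counted as PBS after DSS was 0.424 between the arms and 0.343 over DSS with PBS. Within Turicimonas it made up 72.1% to 78.4% after DSS with GPR15L and 85.1% to 94.7% with PBS, against 57.6% to 86.0% before DSS.

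ASV68, the least abundant of these sequences, stayed in 3 of the 4 mice after DSS with PBS in which ASV34 was at or near 0. Its share of all counts there was 0.0829%, 0.170%, 0% and 0.0559%, a mean of 0.0772% ± 0.0708 (SD, n = 4). After DSS with GPR15L it was 0.255% ± 0.262 (SD, n = 4). Before DSS it was 0.512% ± 0.285 (SD, n = 3) in the GPR15L arm and 0.377% ± 0.347 (SD, n = 3) in the PBS arm. The means were 0.124% after DSS with GPR15L without library 10, 0.199% before DSS in the PBS arm without library 5 and 0.0463% after DSS with PBS without library 13. It passed no test; the log2 difference between the arms after DSS was 2.01 (SE 1.40, adjusted p = 0.304), or 1.96 with the library titled 7 counted as PBS (adjusted p = 0.361). In libraries 12, 13 and 15 it was 10.5%, 14.9% and 13.9% of Turicimonas, and in library 14, the one with ASV34, it was 0 of 151 counts. Libraries 12, 13 and 15 thus held ASV68 and no ASV34, and library 14 the reverse. After DSS with GPR15L all 4 libraries held both.

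All 3 ASVs of Parasutterella had their highest group mean after DSS with GPR15L. ASV96 was 0.303%, 0.189%, 0.746% and 0.554% after DSS with GPR15L, a mean of 0.448% ± 0.250 (SD, n = 4), and at 0 in all 4 PBS mice, at least 349-fold higher (adjusted p = 0.0182). Over DSS in the GPR15L arm it rose at least 491-fold (adjusted p = 0.0349), and the 2 changes differed (adjusted p = 0.0161). The PBS side of that difference rests on 141 counts of ASV96 in library 6 alone, and the difference could not be fitted without this library. ASV151 was 0.122%, 0%, 0.297% and 0.180%, a mean of 0.150% ± 0.123 (SD, n = 4), at least 116-fold higher than with PBS (adjusted p = 0.0417), while its change over DSS in the GPR15L arm was not called (adjusted p = 0.0573). ASV298 was 0.00416%, 0.0568%, 0.0255% and 0.0131%, a mean of 0.0249% ± 0.0230 (SD, n = 4), or 0.0143% without library 9. Against 0 counts with PBS it was at least 19.4-fold higher, given as a description, since it had counts in no other group and its place in the test rests on these 4 libraries. ASV96 and ASV151 likewise reached the filter on low counts only through the GPR15L mice after DSS, which favours a difference there. With no count filter the adjusted p between the arms after DSS was 0.000139 for ASV96, 0.00672 for ASV151 and 0.129 for ASV298. The call of ASV151 between the arms failed in 7 of 14 fits that left out 1 library, and the rise of ASV96 over DSS in 7 of 14. Counting the library titled 7 as PBS after DSS, ASV96 was 6.26-fold higher with GPR15L (adjusted p = 0.382) and ASV151 likewise 6.26-fold (adjusted p = 0.431).

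The makeup of Parasutterella in library 9 differed from that of the other libraries with the genus. The ratio of ASV151 to ASV96 counts lay between 0.324 and 0.447 in 5 of the 6 libraries with the genus, including library 6 and the library titled 7. In library 9 it was 0, with 0 counts of ASV151 against 130 of ASV96, while ASV298 held 39 of 169 counts, or 23.1%. In libraries 8, 10 and 11 ASV298 held 0.968%, 2.39% and 1.75% of the genus, and in the library titled 7 1.48%. Library 6 had 0 of 204 counts of it. Whether these ASVs come from different strains or from gene copies of 1 strain was not tested.

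Of the 9 members, only ASV7, ASV34 and ASV68 would have passed the filter on low counts without the GPR15L mice after DSS. Of these 3, 1 was called higher between the arms after DSS (ASV34), where 10.6% of the 282 ASVs tested were called higher. Over DSS in the PBS arm 1 was called lower (ASV34), where 2.48% of all were called lower. Over DSS in the GPR15L arm 0 were called higher and 0 lower, where 8.87% of all were called higher and 55 of the 282 lower. The log2 differences of ASV7, ASV34 and ASV68 there were -1.43, -1.17 and -0.84. The difference of the changes was called for 1 (ASV34; 3.55% of all were called higher), a call that failed in 3 of 14 fits that left out 1 library. Before DSS 0 of the 3 were called by edgeR, DESeq2 or limma voom and 0 had an unadjusted p under 0.05, with 1.77% of all called in either direction. The tests of ASV96 and ASV151 are left out of these counts, as they had to be high in the GPR15L mice after DSS to be tested; the difference of the changes had an adjusted p of 0.0406 for ASV151 and failed in 10 of 13 fits that left out 1 library. The comparisons share groups, so their counts are not independent. The median log2 difference of all 282 ASVs was 0 in each comparison over DSS and between the arms after DSS, -0.37 between the arms before DSS and 0.33 for the difference of the changes.

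The share of other members of the phylum differed between libraries. Other Burkholderiales were 3 ASVs with at most 0.0154% in any library of the 4 groups, too few to test. Proteobacteria outside Burkholderiales were 10 ASVs, of which 4 could be tested, and 0 passed in any comparison by edgeR, with 9 unadjusted p-values under 0.05 over the 5 comparisons. DESeq2 gave 0 calls, and limma voom gave 4, ASV55 and ASV111 each over DSS in the GPR15L arm and in the difference of the changes. The summed share of the 10 ASVs before DSS was 0.0457% ± 0.0358 (SD, n = 3) in the GPR15L arm and 0.894% ± 0.855 (SD, n = 3) in the PBS arm. After DSS it was 0.646% ± 0.183 (SD, n = 4) with GPR15L and 0.384% ± 0.310 (SD, n = 4) with PBS. The GPR15L groups before and after DSS did not overlap, with at most 0.0786% before and at least 0.389% after. Mitochondrial sequence was 0%, 0.0524% and 0.0303% of all counts in libraries 1 to 3, and 0.635%, 0.599%, 0.446% and 0.198% in libraries 8 to 11. Rickettsiales without a named genus were 0%, 0.0262% and 0.0112%, and 0.170%, 0.118%, 0.121% and 0.0955%, in the same libraries. The summed share after DSS with GPR15L was thus largely mitochondrial and Rickettsiales sequence. The highest value was 1.79% in library 6, above Turicimonas there; mitochondria, the organelles of host or food cells, made up 1.36% of all counts of that library. Enterobacterales, the order of Escherichia that often expands in an inflamed gut, stayed at or below 0.0622% in every library of the 4 groups and was at 0 in all 4 PBS mice after DSS. The share of all ASVs called higher was 10.6% between the arms after DSS and 8.87% over DSS in the GPR15L arm.

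Over the 14 libraries, the genus whose share moved most like that of Parasutterella was Akkermansia, a mucin degrader, with a Spearman correlation of 0.924 among 77 genera compared. Akkermansia was 0.0734%, 0.181%, 0.721% and 0.273% in libraries 8 to 11 and at 0 in the other 10, library 6 included. The next were Rickettsiales (0.663), Mitochondria (0.571), Longibaculum (0.568) and Anaerotruncus (0.530). For Turicimonas they were Roseburia (0.797), a butyrate former, Butyribacter (0.744), the [Eubacterium] xylanophilum group (0.702), Lactobacillus (0.674) and Adlercreutzia (0.663). Roseburia was at 0 in library 6 and in all 8 libraries after DSS. The 2 genera themselves had a correlation of -0.04, place 37 of 77 in the list of Parasutterella and place 39 in that of Turicimonas. All points share the libraries and many values are tied at 0, so these figures are descriptions.

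Among single ASVs of other genera, the closest to ASV96 were ASV99 of Oscillospiraceae (0.952), ASV140 of Akkermansia (0.924) and ASV303 of Lachnospiraceae (0.924). The closest to ASV7 were ASV10 and ASV4 of Bacteroides (0.804 each) and ASV294 of Lachnospiraceae UCG-010 (0.791). Like ASV34, ASV10 and ASV4 were at or near 0 in the 4 mice after DSS with PBS. ASV10 held 1.10% to 7.00% before DSS, 1.36% to 3.88% after DSS with GPR15L and 0 in all 4 PBS mice after DSS. ASV4 held 2.03% to 11.8%, 2.27% to 5.85% and 0 in the same groups. The library titled 7 held 2.94% of ASV10 and 5.73% of ASV4.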

How the data were processed

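The deposited table holds counts of 16S rRNA V4 sequence variants with their taxonomy in 15 mouse stool libraries; the name of the deposited table gives DADA2 as its source, and the submitters' processing notes name R 4.5.1 and limma without a role. Per the labels' protocols, 10 ng of DNA was amplified over 25 cycles and read as paired ends of 151 bases. The chimera filter, the taxonomy database and tool versions for this step were not given in the sources used here. PCR reads are not independent molecules, so intervals and floors (3 counts) cover counting error only.

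ASV counts were summed by genus or lowest named rank (109) and by family (54), and shares were taken of all counts of a library. Features with at least 10 counts in all and a count in at least 3 of 14 libraries were tested: 282 ASVs, 78 genera and 38 families. edgeR 4.0.16 (TMMwsp scaling, 1 mean per group, quasi-likelihood test, Benjamini-Hochberg) was used in R 4.3.3. It was also run on simulated counts in which no group was set to 0, so that run does not cover results with a group at 0. DESeq2 1.42.0, limma 3.58.1 (voom), other scalings and filters, the 2 groups alone, the library titled 7 as titled, and each library left out were alternatives. ASVs whose mean share reached 0.1% in a group are described in full, with the 5 genera and 3 ASVs most alike by Spearman correlation. The members and lists were chosen with earlier results of these data known. Cages are not named per mouse, so p-values measure only the spread between these libraries.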

Additional observations from a re-analysis of the deposited data

Results flagged for a closer look

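Library 10, after DSS with GPR15L, stood far above the other 3 of its group in Turicimonas (6.49%), in ASV7 (4.99%) and in ASV68 (0.646%). Library 14 was the only one of 4 after DSS with PBS that held ASV34, at 0.0118% of all counts and 5.30% of Turicimonas. Library 9 stood apart within Parasutterella, with ASV151 at 0% of the genus and ASV298 at 23.1%. These 7 values came from 24 comparisons of the highest or lowest sample with the gap that Dixon's test allows, of which chance gives about 1 in 20 if they are independent. They are not independent, as a genus contains its ASVs and the shares within a genus sum to a fixed total. For ASV34 after DSS with PBS any count would be flagged, as the other values are 0. The 7 of 24 therefore cannot be read against that rate.

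The change over DSS differed between the arms by edgeR's test of the difference itself for ASV34 (log2 8.13, adjusted p = 0.0165), ASV96 (20.5, adjusted p = 0.0161), ASV151 (17.9, adjusted p = 0.0406) and Parasutterella (21.2, adjusted p = 0.0247). The last 3 sizes rest on groups at 0 and are no folds. These 3 reached the filter on low counts only through the GPR15L mice after DSS, which favours a difference there. With 1 library left out, the call held in 11 of 14 fits for ASV34, 13 of 13 for ASV96, 3 of 13 for ASV151 and 9 of 13 for Parasutterella. The difference for the last 3 could not be fitted without library 6. The library titled 7, which entered no comparison, held more than any of the 4 PBS libraries after DSS of Parasutterella (0.485% against 0), Turicimonas (4.68% against 1.14%), ASV7 (3.20% against 0.973%), ASV34 (1.38% against 0.0118%), ASV96 (0.358% against 0), ASV151 (0.120% against 0) and ASV298 (0.00717% against 0).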

How the results depend on the processing

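Over the 42 tested results and their alternatives, 777 values kept their direction and side of the threshold, 91 lost the call, 28 gained it and 4 turned. The 777 include results not called to begin with, so the 91 are not to be read against them. Parasutterella kept its call in 19 of 22 alternatives between the arms after DSS, 13 of 22 over DSS with GPR15L and 15 of 20 for the difference of changes. Sutterellaceae kept each of its calls in 15 of 22. ASV34 kept its calls in 21 of 22 between the arms and over DSS with PBS, and in 17 of 21 for the difference of changes. Where a group was at 0, the fitted log2 size is no fold. With the library titled 7 counted as PBS after DSS, the log2 differences were 3.65 for Parasutterella between the arms after DSS, 12.7 over DSS with GPR15L, 12.5 for the difference of changes and, turned, 0.25 over DSS with PBS (0.35 for ASV96); 1.91 and -2.43 for Sutterellaceae between the arms and over DSS with PBS; and 0.83, -2.47 and 1.30 for ASV34 between the arms, over DSS with PBS and for the difference of changes. No member ASV then passed: the counts were 0 between the arms after DSS, 0 and 0 over DSS in both arms and 0 for the difference of changes. DESeq2 gave Parasutterella -23.1 between the arms before DSS and -23.3 over DSS with PBS, now called, and Turicimonas 2.44 and -3.07 between the arms after DSS and over DSS with PBS. Total counts gave Turicimonas -3.35 over DSS with PBS. The 2 groups alone gave Turicimonas 2.36 between the arms after DSS and Sutterellaceae -3.36 over DSS with PBS, the latter no longer called. Between the arms after DSS, Sutterellaceae was not called with limma voom (2.58) or with the filter of a mean share of 0.1% (2.85). Member ASVs called, with ASV96, ASV151 and ASV298 counted, numbered 0 before DSS and 4 between the arms after it in the main fit. They numbered 1 over DSS with PBS and 2 with GPR15L. ASV96, ASV151 and ASV298 reached the filter on low counts only through the GPR15L mice after DSS, which favours a difference there. Counts that include them are not to be read against those of all ASVs. Of ASV7, ASV34 and ASV68 alone, 1 was called between the arms after DSS, 1 over DSS with PBS and 0 with GPR15L. Of all 282 ASVs, 5, 79, 12 and 80 were called before DSS, between the arms after it, over DSS with PBS and with GPR15L. Before DSS the members called became 2 (DESeq2) and 1 (no count filter), with 17 and 10 of all ASVs. Between the arms after DSS they became 2 (0.1% filter, with 28 of all), where ASV151 and ASV298 were not tested. Over DSS with PBS they became 2 (TMM), 4 (DESeq2), 2 (voom) and 2 (no filter), with 14, 51, 56 and 36 of all. Over DSS with GPR15L they became 1 (total counts), 4 (voom) and 1 (0.1% filter), with 62, 109 and 40 of all. The cause of these changes was not tested.

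With each library left out, log2 differences ranged as follows. Parasutterella lay between 12.0 and 12.9 between the arms after DSS and over DSS with GPR15L, -9.28 and -8.56 over DSS with PBS and 20.7 and 21.9 for the difference of changes. Turicimonas lay between -3.70 and -1.89 over DSS with PBS. Sutterellaceae lay between 1.93 and 3.41 between the arms after DSS and -3.93 and -2.50 over DSS with PBS. ASV34 lay between -1.32 and 0.069 between the arms before DSS (turned without library 5) and 7.13 and 12.2 for the difference of changes; ASV68 turned for the difference of changes without library 10 (-0.078). Member ASVs called ranged from 2 to 5 between the arms after DSS, 0 to 3 over DSS with GPR15L and 1 to 3 for the difference of changes. These member counts include ASV96, ASV151 and ASV298, which reached the filter on low counts only through the GPR15L mice after DSS. Of all ASVs, 41 to 89, 22 to 100 and 13 to 33 were called in the same fits.

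Over all alternatives the ASVs called ranged from 0 to 17 before DSS, 28 to 102 between the arms after DSS, 3 to 56 over DSS with PBS, 22 to 109 with GPR15L and 9 to 82 for the difference of changes. Scaling moved the median log2 difference of all genera by up to 0.58 (arms before DSS). No paired analysis was possible because the sample numbers run from 1 to 15 with none shared between groups. The correlation of the 2 genera was -0.04 by rank, -0.06 by Pearson's r of log2 shares and -0.02 with the library titled 7 included; none has a p, as a genus was at 0 in whole groups. No sequence comparison of the ASVs was made.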
